A study of Mus musculus with 3 samples.

Results

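The immunoglobulin heavy chain variable (Ighv) segments were followed in blood mononuclear cells of mice as all gene symbols that start with Ighv, which were 185 of the 32285 genes counted. Their unique molecular identifiers (UMIs, each standing for a captured RNA molecule) were summed per segment and per family in B cells and in plasma cells of each library. A B cell held at least 3 UMIs of Cd79a and Cd79b together, the partners of the B cell receptor, and at most 1 UMI of the T cell genes Cd3d, Cd3e and Cd3g. A plasma cell held at least 10 UMIs of Jchain, the joining chain of secreted IgA and IgM, and at least 1 UMI of Mzb1, a chaperone of the endoplasmic reticulum in antibody-making cells. Cells that met both rules, which were 2, 50 and 34 in young, aged and aged-GA mice, were counted as plasma cells only.

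Single-cell RNA-seq was performed with a kit that reads the 3′ end of transcripts on peripheral blood mononuclear cells of female C57BL/6 mice, with 1 library per group. The young group was 8 weeks old and the aged group 16 months old. The labels give the treatment of both as none, while the study's methods state that control mice were given saline (PBS) by the same route as the treatment. The aged-GA group was 16 months old and received glycyrrhizic acid (GA), a saponin of licorice root, for 1 month, given at 5 mg/kg into the tail vein every 2 days for 30 days. The study's text gives 5 mice per group, and whether a library pools them was not stated. With 1 library per group no difference could be tested, so intervals in the text are exact 95% Poisson or binomial intervals, cover counting error only, and say nothing of the spread between mice. The rules found 2317, 4550 and 5739 B cells among 8851, 10238 and 12648 cells kept in young, aged and aged-GA mice, and 4, 72 and 50 plasma cells. The B cells held 9360442, 18926707 and 27187152 UMIs, with medians of 3413, 3190 and 3846 UMIs per cell.

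A heavy chain gene is assembled in each developing B cell from a V, a D and a J segment, and the V segment encodes most of the domain that contacts antigen, including the first and second hypervariable loops. The segments are grouped into families by sequence likeness, and in most B cells only 1 heavy chain allele is productively joined, so a cell is expected to carry a single V segment in its heavy chain message. Plasma cells secrete the chain in large amounts, and clones that expand after antigen contact share a V segment. The V segment lies at the 5′ end of the message, far from the 3′ end that this kit tags, so V segment UMIs are a small part of heavy chain UMIs.

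All 185 segments matched the GENCODE M21 annotation of GRCm38 (the same assembly as mm10) and lay on chromosome 12 between 113572927 and 116010093, a span of 2437 kb. By annotation 113 were functional V genes, 70 were V pseudogenes and 2 had another biotype. The other-biotype segments lay on the plus strand and had 0 UMIs in B cells, and the remaining 183 segments lay on the minus strand. The last 120 bases of the coding strand are printed for 9 segments. Ighv6-3, Ighv5-4, Ighv3-6 and Ighv1-64 had the most B cell UMIs over the 3 libraries, Ighv1-82 and Ighv1-81 led the plasma cell UMIs of aged and aged-GA mice, Ighv1-55 led more plasma cells of aged-GA mice than any other segment, and Ighv11-2 and Ighv12-3 are the segments known from B-1 cells. Capitals mark the codon of the conserved second cysteine of the V domain, after which the D segment is joined, and all sequences are on the minus strand of GRCm38.
Ighv6-3: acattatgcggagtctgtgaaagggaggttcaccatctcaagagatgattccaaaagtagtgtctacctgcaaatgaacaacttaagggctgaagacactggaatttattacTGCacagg
Ighv5-4: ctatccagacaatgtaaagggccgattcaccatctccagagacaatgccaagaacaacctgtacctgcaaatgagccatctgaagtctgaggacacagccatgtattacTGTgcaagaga
Ighv3-6: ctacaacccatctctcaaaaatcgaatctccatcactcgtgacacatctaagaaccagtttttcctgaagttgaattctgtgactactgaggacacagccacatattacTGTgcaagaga
Ighv1-64: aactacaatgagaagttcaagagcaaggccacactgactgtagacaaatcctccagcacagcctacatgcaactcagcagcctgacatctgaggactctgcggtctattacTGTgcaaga
Ighv1-82: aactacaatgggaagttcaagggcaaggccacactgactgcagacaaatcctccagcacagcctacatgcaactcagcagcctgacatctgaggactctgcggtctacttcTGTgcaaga
Ighv1-81: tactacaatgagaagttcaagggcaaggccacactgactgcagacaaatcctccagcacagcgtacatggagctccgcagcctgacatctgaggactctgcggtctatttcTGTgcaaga
Ighv1-55: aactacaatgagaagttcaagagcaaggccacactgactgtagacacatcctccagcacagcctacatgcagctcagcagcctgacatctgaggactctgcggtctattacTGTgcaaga
Ighv11-2: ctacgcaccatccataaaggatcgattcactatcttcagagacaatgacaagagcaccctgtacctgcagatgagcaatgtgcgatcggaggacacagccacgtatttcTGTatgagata
Ighv12-3: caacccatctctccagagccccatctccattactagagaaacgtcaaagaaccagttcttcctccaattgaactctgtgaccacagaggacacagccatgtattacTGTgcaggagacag

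These stretches lie in the last exon of each segment's 2 exons. Ighv6-3 is read from chr12:114391712-114391831 and Ighv5-4 from chr12:113597446-113597565. Ighv3-6 is read from chr12:114288152-114288271 and Ighv1-64 from chr12:115507545-115507664. Ighv1-82 is read from chr12:115952538-115952657, Ighv1-81 from chr12:115920279-115920398 and Ighv1-55 from chr12:115208095-115208214. Ighv11-2 is read from chr12:114048241-114048360 and Ighv12-3 from chr12:114366521-114366640. Over the last 280 bases, compared position by position without gaps, Ighv1-64 and Ighv1-55 were 95% identical, and Ighv1-64 and Ighv1-81 were 89.3% identical. Ighv6-3 and Ighv5-4 were 71.8% identical, and Ighv11-2 and Ighv12-3 were 58.9% identical. Of the 113 functional segments, 60 were at least 95% identical to another segment over those bases, with a median of 95.4% to the nearest relative. Only 3 segments had under 50% of their 90-base windows found in no other segment, namely Ighv1-62-2 (9.34%), Ighv1-71 (2.96%) and Ighv1-72 (47.2%). Many reads of Ighv1-62-2 and Ighv1-71, and part of those of Ighv1-72, cannot be told from reads of a close copy, and their counts are uncertain. Segments above this limit can be affected in part. Ighv2-2, named below, had 69.6% of its windows in no other segment and was 97.9% identical to Ighv2-4.

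The B cells carried the B cell markers, of which Cd79a and Cd79b also set the rule. The 8 B cell markers summed to 21551, 18523 and 21456 CPM (the UMIs of a gene divided by all UMIs of the cells, scaled to 1e6) in the B cells of young, aged and aged-GA mice. None of the 8 was at 0, which the rule fixes in part for Cd79a and Cd79b. Cd74 alone stood at 14981, 11852 and 14291 CPM, which is most of each sum. Of the markers outside the rule, Ms4a1 was found in 82.1%, 87.3% and 91.0% of B cells and Cd22 in 30.6%, 57.7% and 56.3%. The 4 erythroid haemoglobin genes and Alas2 summed to 47000, 112753 and 82088 CPM in those B cells, and the 5 myeloid markers to 307, 4109 and 1807 CPM. The pairs of libraries shared 50 to 62 cell barcodes, of which 3 to 5 were B or plasma cells. In bulk sums of this kind, fewer cells that carry a segment and less RNA per cell cannot be told apart.

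V segment UMIs made up a smaller part of the B cell UMIs in both libraries of 16-month-old mice. Young B cells held 1018 Ighv UMIs, aged B cells 1131 and aged-GA B cells 1453. The level was 109 CPM (102 to 116) in the young library, 59.8 CPM (56.3 to 63.3) in the aged library and 53.4 CPM (50.7 to 56.3) under GA, a log2 ratio of -0.86 for aged over young (-0.99 to -0.74) and of -0.16 for aged-GA over aged (-0.27 to -0.05). Counted by cells with at least 2 UMIs of a leading segment, as a share of the B cells, the log2 ratio of aged-GA over aged was 0.060. This share is not corrected for depth, and the aged-GA B cells were deeper, with a median of 3846 UMIs against 3190. The direction thus differs between 2 counts that also differ in denominator. The young library was the highest, the intervals of the other 2 nearly touched, and the median gene stood at 0.20 on the log2 scale for aged over young. At least 1 Ighv UMI was found in 32.5% (30.6 to 34.5%) of young, 20.4% (19.2 to 21.6%) of aged and 20.7% (19.7 to 21.8%) of aged-GA B cells. After each cell was thinned to 1000 UMIs, which left out 5, 6 and 8 B cells, the shares were 10.4%, 6.10% and 5.69%. In T cells, which do not make immunoglobulin, the share without thinning was 0.0978%, 0.246% and 0.45%, at medians of 5028, 4734 and 5876 UMIs per cell, and the level was 0.179, 0.451 and 0.692 CPM. These T cells were chosen to hold 0 UMIs of Cd79a and Cd79b. That choice leaves out T cells with such RNA of B cells, so the values may understate the background.

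Ighm and Ighd, the constant genes that most B cells express, did not share this difference. Ighm, the constant gene of IgM, stood at 2516, 2792 and 2883 CPM in the B cells of young, aged and aged-GA mice, and Ighd, that of IgD, at 711, 826 and 825 CPM. For each 1000 UMIs of Ighm and Ighd the young library thus had 33.7 Ighv UMIs (31.7 to 35.8), the aged library 16.5 (15.6 to 17.5) and the aged-GA library 14.4 (13.7 to 15.2). All 5 kinds of antigen receptor V segment examined were lower per constant gene UMI in the aged than in the young library, the T cell receptor in T cells included. Kappa segments (Igkv) numbered 13.2, 10.9 and 6.51 per 1000 UMIs of Igkc in the B cells of young, aged and aged-GA mice, and lambda segments (Iglv) 8.71, 5.82 and 4.85 per 1000 UMIs of Iglc1 to Iglc3. In T cells, beta chain segments (Trbv) numbered 18.5, 12.8 and 9.69 per 1000 UMIs of Trbc1 and Trbc2. Alpha chain segments (Trav) numbered 91.9, 65.0 and 77.6 per 1000 UMIs of Trac. The log2 ratio for aged over young was -1.03 for Ighv (-1.15 to -0.91), -0.27 for Igkv (-0.37 to -0.16), -0.58 for Iglv (-0.84 to -0.32), -0.54 for Trbv (-0.72 to -0.36) and -0.50 for Trav (-0.67 to -0.33). The interval of Ighv lay below those of the other 4. For aged-GA over aged the same ratio was -0.20 for Ighv (-0.31 to -0.08), -0.75 for Igkv (-0.84 to -0.65), -0.26 for Iglv (-0.49 to -0.04), -0.40 for Trbv (-0.62 to -0.18) and 0.26 for Trav (0.07 to 0.45). The comparison with light chain and T cell receptor segments was added after the Ighv levels were seen, and the part that this difference, shared with the T cell receptor, has in the Ighv result was not tested. How far the reads of each library reach toward the 5′ end of a transcript cannot be read from UMI counts, and its part was not tested.

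**Figure D1:**
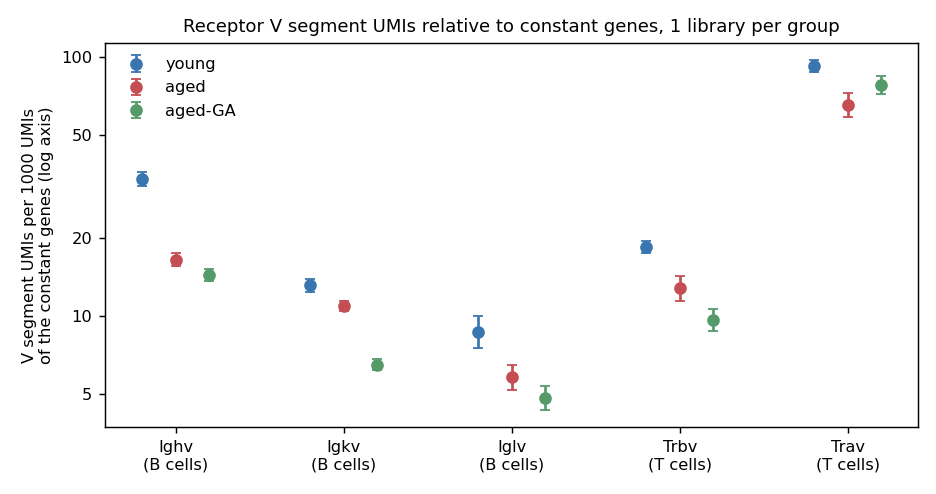
V segment UMIs per 1000 UMIs of the matching constant genes (y axis, log scale) for heavy (Ighv), kappa (Igkv) and lambda (Iglv) chains in B cells and for beta (Trbv) and alpha (Trav) chains in T cells. Points are the 1 library of each group and bars are exact 95% Poisson intervals. The young library is the highest for all 5, and the largest gap to the aged library is that of Ighv, 33.7 against 16.5.

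Heavy chain usage by family was led by Ighv1, the largest family with 93 segments in the annotation. It held 526, 539 and 727 UMIs in young, aged and aged-GA B cells, or 51.7% (48.6 to 54.8%), 47.7% (44.7 to 50.6%) and 50.03% (47.4 to 52.6%) of the Ighv UMIs. Ighv5, a family that lies near the D segments, held 97, 157 and 167 UMIs, or 9.53%, 13.9% and 11.5%. Ighv2, which lies interspersed with Ighv5, held 53, 98 and 98 UMIs, or 5.21%, 8.66% and 6.74%. By UMIs the share of these proximal families was lowest in the young library. For aged-GA over young the log2 share ratio was 0.37 for Ighv2 (-0.12 to 0.88) and 0.27 for Ighv5 (-0.099 to 0.65). Both intervals held 0. Of the cells assigned to a segment (rule given below), Ighv5 took 12.3%, 12.6% and 13.8% in young, aged and aged-GA mice. Ighv2 was again lowest in the young library. UMIs of the same cell are not independent, and 363 of the 1131 aged Ighv UMIs lay in 158 cells.

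Ighv3 held 61, 48 and 74 UMIs in young, aged and aged-GA B cells, and Ighv6 held 48, 54 and 90. Ighv8 held 54, 57 and 71, and Ighv9 held 37, 48 and 69. Ighv14 held 33, 35 and 40 UMIs, Ighv10 held 29, 22 and 33, Ighv7 held 29, 25 and 32, and Ighv4 held 28, 22 and 26. These 8 families each took between 1.79% and 6.19% of the Ighv UMIs of a library. The small families Ighv11, Ighv12, Ighv13 and Ighv15 held at most 14 UMIs in a library. The single segment of Ighv16 had 0 in all 3, with an interval that reaches 0.362% of the Ighv UMIs of young mice.

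On the CPM scale, 9 of the 15 families with UMIs had an interval of the aged over young ratio below 0, among them Ighv1 (log2 -0.98, -1.16 to -0.80) and Ighv3 (-1.36, -1.94 to -0.79), and none had an interval above 0. The ratio of all Ighv UMIs on this scale was -0.86, and no count of such intervals over all genes is given beside it. As a share of the Ighv UMIs, no family had an interval below 0, and the intervals of Ighv2 (log2 0.73, 0.24 to 1.25) and Ighv5 (0.54, 0.17 to 0.92) lay above 0. For aged-GA over aged, the CPM intervals of Ighv2 (-0.52, -0.94 to -0.10) and Ighv5 (-0.43, -0.76 to -0.11) lay below 0, and no share interval left 0. The 2 comparisons share the aged library, so a high value there enters both with opposite sign. With 15 families read at once, intervals of this width leave 0 now and then by counting alone. They also take UMIs of a cell as independent and are too narrow.

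**Figure D2:**
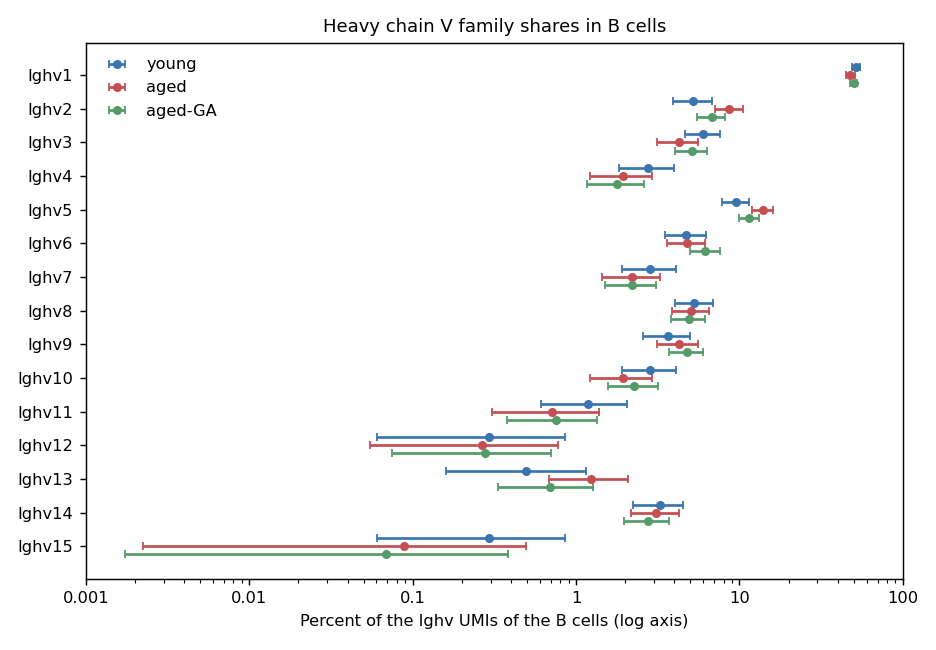
Share of each V family among the Ighv UMIs of B cells (x axis, percent, log scale) for the 15 families with a UMI. Points are the 1 library of each group and bars are exact 95% binomial intervals. Ighv1 lies near 50% in all 3 libraries, and the points of Ighv2 and Ighv5 are further right in the aged than in the young library.

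Usage was spread over many segments. In B cells 118 of the 185 segments had a UMI in at least 1 library, of which 102 were functional and 16 were pseudogenes. A library showed 99, 99 and 108 of them in young, aged and aged-GA mice, and 82 functional segments were seen in all 3. The inverse Simpson index, the number of equally used segments that would give the same concentration, was 52.0, 54.8 and 52.6. The leading 10 segments of each library held 31.4%, 30.2% and 32.1% of its Ighv UMIs. Pseudogenes took 1.47% (0.83 to 2.42%), 1.41% (0.81 to 2.29%) and 1.31% (0.79 to 2.03%), led by Ighv3-2 with 3, 6 and 5 UMIs. Neither in B nor in plasma cells did 65 segments have a UMI, of which 11 were annotated as functional.

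The leading segment differed between libraries and took under 5% in each. In the young library it was Ighv1-64 with 44 UMIs (4.32%), in the aged library Ighv5-4 with 47 (4.16%) and in the aged-GA library Ighv6-3 with 62 (4.27%). Ighv6-3 had 33 and 30 UMIs in young and aged B cells. Ighv5-4 had 30 UMIs in young and 44 in aged-GA B cells. Ighv3-6 had 42, 24 and 54 UMIs, and Ighv1-64 had 44, 23 and 53. Ighv1-26 had 35, 39 and 36 UMIs and Ighv9-3 had 23, 35 and 49. The next 4 in order over all libraries, Ighv1-82, Ighv1-81, Ighv1-9 and Ighv8-8, had between 17 and 48 UMIs in a library. Across the 113 functional segments, Pearson's r of the UMI shares was 0.78 between aged and young, 0.84 between aged-GA and aged and 0.91 between aged-GA and young B cells. By rank (Spearman's rho) the values were 0.85, 0.90 and 0.90, so aged-GA was about as close to aged as to young. These coefficients are a description over segments, which share the sampling depth of 2 libraries and are no replicates.

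Of the segments, 10 reached 50 UMIs over the aged and young B cells, the minimum for a comparison of single genes, in which a difference of at least 2-fold on log2(CPM + 1) was called. None was called higher and 2 were called lower, where 6.01% of the 10290 genes compared were called higher and 1.05% lower. The median over the 10 segments was -0.58 on that scale, 9 lay below 0, and the median over all genes was 0.20. The share called lower, 2 of 10, was drawn from counts of 23 to 44 UMIs per library, and a segment at a few CPM cannot reach 2-fold on this scale unless its own ratio is larger. The 2 were Ighv1-64, from 4.70 to 1.22 CPM, and Ighv3-6, from 4.49 to 1.27 CPM. Without the added 1, their log2 ratios were -1.95 (-2.75 to -1.19) and -1.82 (-2.61 to -1.07). Any segment called lower lies below the ratio of all Ighv UMIs, so the call fixed this in advance. Taken as shares of the Ighv UMIs, 0 segments were past 2-fold in either direction. Ighv6-3 went from 3.53 to 1.59 CPM, a log2 ratio of -1.15 (-1.92 to -0.40). The highest ratio was that of Ighv2-2, with 15 UMIs in young and 38 in aged B cells, at 0.33 (-0.57 to 1.29), and those of Ighv5-4, Ighv9-3 and Ighv1-9 were -0.37, -0.41 and -0.54 with intervals that held 0.

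Between aged-GA and aged B cells no segment of the 16 compared was called, where 0.0545% of 11013 genes were called higher and 1.44% lower. Their median was -0.13 on log2(CPM + 1), and 10 of the 16 lay below 0. The highest ratio was that of Ighv1-81, with 17 UMIs in aged and 48 in aged-GA B cells, at a log2 of 0.97 (0.15 to 1.87). Ighv1-64, Ighv3-6 and Ighv6-3 followed at 0.68, 0.65 and 0.52, each with an interval that held 0. These are also 3 of the segments with the lowest ratios of aged over young, and the aged library is in both comparisons. The lowest ratios were those of Ighv2-2 at -1.02 (-1.78 to -0.27) and Ighv5-16, with 29 and 21 UMIs, at -0.99 (-1.87 to -0.13). Ighv1-75 and Ighv5-4 had ratios of -0.77 and -0.62, with intervals that held 0.

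Along the locus, the segments nearest to the D segments took a larger share in the aged library. In 500 kb steps from the most proximal segment, the first step, with 29 functional segments that include all those of Ighv2 and Ighv5, held 234, 317 and 355 UMIs in young, aged and aged-GA B cells. This was 23.0% (20.4 to 25.7%), 28.0% (25.4 to 30.7%) and 24.4% (22.2 to 26.7%) of the Ighv UMIs, a log2 share ratio of 0.29 for aged over young (0.04 to 0.54) and of -0.20 for aged-GA over aged (-0.42 to 0.02). The second step, which holds the middle families, took 22.8%, 21.8% and 22.4%. The next steps hold Ighv1 and Ighv8 segments and took 19.8% and 15.2% in young, 16.7% and 12.6% in aged and 17.8% and 15.4% in aged-GA B cells. The most distal step took 19.2%, 20.8% and 19.96%. In cells assigned to a segment, which are counted once whatever their UMIs, the first step took 27.3% (20.4 to 35.0%), 31.5% (23.5 to 40.3%) and 28.1% (21.5 to 35.6%) of the young, aged and aged-GA cells assigned, with intervals that overlap.

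**Figure D3:**
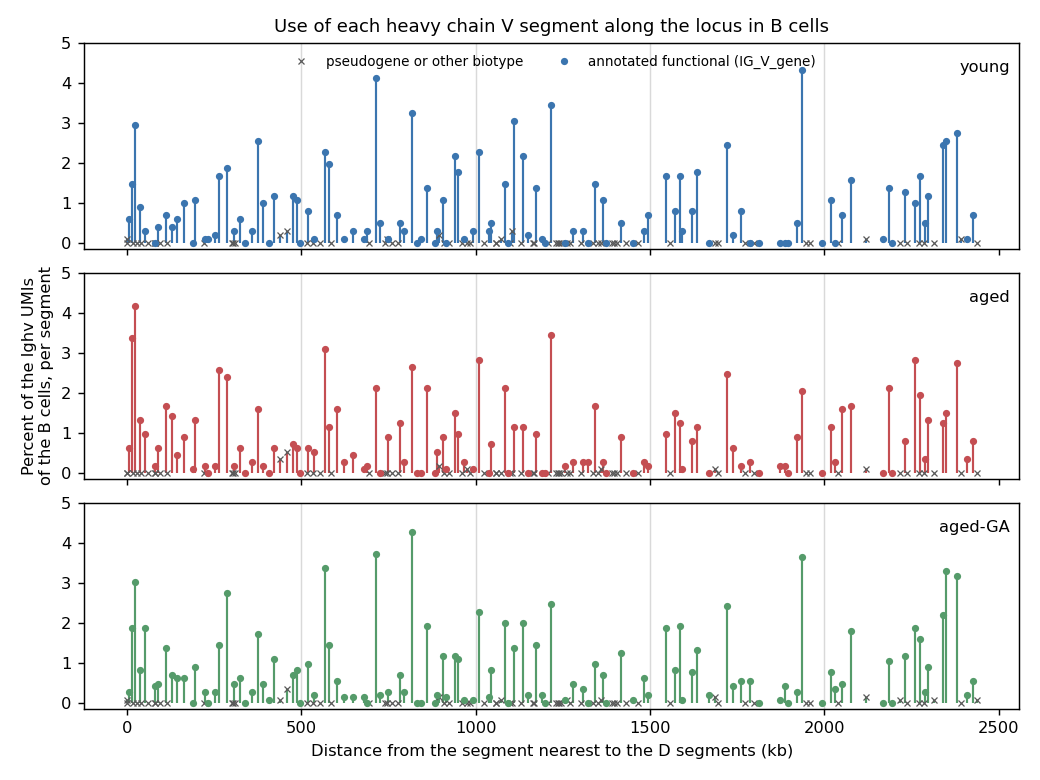
Share of each segment among the Ighv UMIs of B cells (y axis, percent) against its distance from the most D-proximal segment (x axis, kb), for the 1 library of each group. Circles are annotated functional genes, crosses are pseudogenes and segments of another biotype, and grey lines mark 500 kb steps. Use is spread over the whole locus, with the highest segment at 4.32%, 4.16% and 4.27% in young, aged and aged-GA mice, and crosses lie at or near 0.

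Most B cells with several Ighv UMIs carried a single segment. Among B cells with at least 2 Ighv UMIs, UMIs of 1 segment only were found in 78.8% (72.3 to 84.3%) of the 193 young, 79.7% (72.6 to 85.7%) of the 158 aged and 78.4% (72.3 to 83.7%) of the 213 aged-GA cells. The leading segment held 90.6%, 90.6% and 89.7% of the UMIs of those cells. At least 2 UMIs of a second segment were found in 1, 0 and 1 B cells. In the cells with more than 1 segment, 3 of 41, 4 of 32 and 3 of 46 pairs were at least 90% identical to each other in sequence. Cells were assigned to a segment where it had at least 2 UMIs and at least 80% of the cell's Ighv UMIs, which gave 154, 127 and 167 B cells over 61, 59 and 58 segments.

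Class-switched B cells, those whose leading heavy chain constant gene was other than Ighm or Ighd, numbered 3, 70 and 64 in young, aged and aged-GA mice. The aged ones held 25 Ighv UMIs in 12 cells, of which 4 were of Ighv1, or 16.0% (4.54 to 36.1%), against 48.4% (45.4 to 51.4%) in aged B cells led by Ighm or Ighd. Their leading segment was Ighv2-2 with 6 UMIs. The aged-GA ones held 9 UMIs in 8 cells, of which 5 were of Ighv1. In these few UMIs, several from the same cell, the class cannot be compared between groups. The level was 56.3 CPM (36.5 to 83.2) in switched and 60.0 CPM (56.5 to 63.6) in other aged B cells, and 21.4 CPM (9.77 to 40.6) and 54.1 CPM (51.3 to 56.9) in aged-GA mice.

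Among the other genes of the heavy chain and its receptor, 5 of the 7 constant genes compared were called higher in aged than in young B cells, against the 6.01% of all genes given above, and none was called between aged-GA and aged. They were Igha, Ighg1, Ighg2b, Ighg2c and Ighg3. Igha had 15, 1082 and 1108 UMIs in young, aged and aged-GA B cells, and Ighg1 had 0, 62 and 193. Ighg2b had 26, 400 and 790 UMIs, Ighg2c had 1, 91 and 113, and Ighg3 had 44, 270 and 299. Igha stood at 1.602, 57.2 and 40.8 CPM. For aged-GA over aged, the log2 intervals of Igha (-0.61 to -0.37) and Ighg3 (-0.62 to -0.13) lay below 0. Those of Ighg1 (0.696 to 1.55) and Ighg2b (0.28 to 0.64) lay above 0, and that of Ighg2c held 0. Igha also led the constant genes of 70 of 72 aged and 46 of 50 aged-GA plasma cells. The part that RNA of other cells has in the Igha call was not tested. Cd79a, the signalling partner of the receptor, stood at 3488, 3008 and 3455 CPM. Of 21 receptor and secretion genes compared, 2 were called higher in aged B cells, against the same 6.01% of all genes. So small a count does not set this list apart from other genes. The 2 were Cd22, an inhibitory coreceptor, at 98.9, 230 and 210 CPM, and Jchain with 3, 216 and 285 UMIs. Jchain stood at 0.320, 11.4 and 10.5 CPM in B cells and also at 0.215, 5.05 and 7.24 CPM in T cells, which do not make it, and the part that RNA of other cells has in this call was not tested. Rag1, Rag2 and Dntt, which join and trim V segments in B cell precursors, were too few to compare, with 1, 6 and 1 UMIs of Rag1 in young, aged and aged-GA B cells, 2 of Rag2 in the aged library and 0 of Dntt in any.

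Plasma cells had a higher level of V segment UMIs than B cells in every library, spread over many segments that mostly led 1 or a few cells each. The 4 plasma cells of young mice held 34 Ighv UMIs, the 72 of aged mice 576 and the 50 of aged-GA mice 509, which is 533, 529 and 432 CPM. An Ighv UMI was found in 3 of 4, 51 of 72 (70.8%, 58.9 to 81.0%) and 46 of 50 (92.0%, 80.8 to 97.8%). These shares are not corrected for depth, and the medians were 17135.5, 15775.5 and 22795.5 UMIs per plasma cell. Thinned to 1000 UMIs, which left out 1 aged cell, they were 2 of 4, 29.6% (19.3 to 41.6%) and 34.0% (21.2 to 48.8%). The intervals of aged and aged-GA then overlapped widely. Igha, the constant gene of IgA, was the leading heavy chain constant gene in 4 of 4, 70 of 72 and 46 of 50. The plasma cell markers summed to 25583, 23033 and 23885 CPM. Most of each sum came from the genes of the rule, Jchain at 19348, 16910 and 18338 CPM and Mzb1 at 3995, 4369 and 3376 CPM. The rule sets no limit on Cd3 UMIs, and more than 1 of them was held by 2 of 4, 18 of 72 and 16 of 50 plasma cells. T cell markers summed to 627, 412 and 380 CPM in plasma cells, against 37.3, 40.3 and 59.0 CPM in B cells. The B cell rule allows at most 1 Cd3 UMI, and Cd3d, Cd3e and Cd3g are among these markers. The low sums in B cells are thus in part fixed by that rule. The part of T cell RNA or of doublets in the plasma cells was not tested. In plasma cells with at least 2 Ighv UMIs, UMIs of 1 segment only were found in 2 of 3, 35 of 49 (71.4%) and 31 of 42 (73.8%), and the leading segment held 97.1%, 95.1% and 95.8% of the UMIs. At least 2 UMIs of a second segment were found in 0, 5 and 7 of these cells. In the plasma cells with more than 1 segment, 1 of 1, 6 of 14 and 4 of 11 pairs were at least 90% identical in sequence. The part that reads of close copies have in these second segments was not tested.

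By UMIs the leading segments of aged plasma cells were Ighv1-82 with 46 UMIs (7.99%, 5.91 to 10.5%), Ighv8-8 with 43 and Ighv14-3 with 40, each from 2 cells. Those of aged-GA plasma cells were Ighv1-81 with 77 (15.1%, 12.1 to 18.5%), Ighv1-66 with 58, of which 50 came from 1 cell, and Ighv10-3 with 48, all from 1 cell. In the young library Ighv1-53, Ighv1-82 and Ighv1-26 held 15, 11 and 7 UMIs in 1 cell each. Ighv1 took 46.5% (42.4 to 50.7%) of aged and 62.3% (57.9 to 66.5%) of aged-GA plasma cell Ighv UMIs, and Ighv9 took 14.4% and 2.55%. UMIs of the same cell are not independent, so these intervals understate the error.

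Counted by cells, each with its leading segment, the 51 aged plasma cells used 32 segments and the 46 aged-GA cells used 29. Of these segments, 17 and 20 were found in a single cell. No aged segment led more than 3 cells, a number that Ighv1-18, Ighv1-26, Ighv9-2 and Ighv9-3 each reached. In aged-GA mice Ighv1-55 led 6 cells with 3 to 11 UMIs each, and Ighv1-81 led 5 with 4 to 27. The 6 cells of Ighv1-55 carried 6 different leading light chain segments, and the 5 of Ighv1-81 carried 4. The same heavy and light segment pair was seen in at most 2 cells. These pairs were Ighv1-26 with Igkv12-46 and Ighv1-52 with Igkv6-15 in aged mice, and Ighv1-81 with Igkv1-110 and Ighv3-6 with Iglv1 in aged-GA mice. Segments of the light chain and repeated segments beyond the leading 3 were named after their values were seen. The inverse Simpson index by cells was 26.8 for aged and 18.6 for aged-GA plasma cells, and by UMIs 20.7 and 14.5, values that also depend on how many cells were sampled.

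The 21 aged plasma cells without an Ighv UMI held fewer UMIs in all than the 51 with one. Cells with few heavy chain UMIs fall among the 21 by the split itself, so their lower constant gene counts are in part fixed by it. Their median was 41 UMIs of heavy chain constant genes against 918, 16 UMIs of Jchain against 354, and 4530 UMIs in all against 17292. At most 100 constant gene UMIs were found in 20 of the 21 and in 2 of the 51. Sdc1, a surface marker of plasma cells, was found in 2 of 21 and 29 of 51, and Prdm1, the regulator of plasma cell fate, in 2 of 21 and 35 of 51. Such shares of cells are compared at unequal depth and are lower in shallow cells for that reason alone. Hba-a1, an erythroid haemoglobin gene, stood at 37380 CPM without and 4995 CPM with an Ighv UMI, and the neutrophil gene S100a8 at 3023 and 113 CPM. Igkv1-110 was the leading light chain segment in 11 of the 21 and 1 of the 51, and in aged B cells it took 3.56% (2.80 to 4.45%) of the light chain V UMIs. Its lead in the 11 cells rests on 1 to 4 UMIs each, among 1 to 6 light chain V UMIs, so it cannot be read as a shared light chain. Xbp1, a regulator of secretion, was found in 17 of the 21, and Irf4 in 4. The part that RNA of other cells has in these cells was not tested. Of the 50 aged-GA plasma cells, 4 were without an Ighv UMI, with medians of 345 constant gene and 102 Jchain UMIs.

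**Figure D4:**
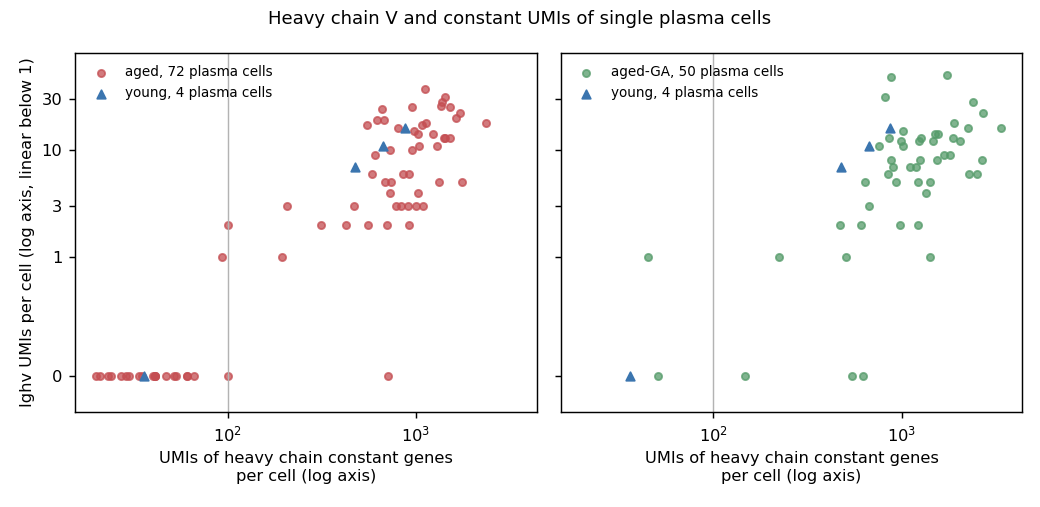
Ighv UMIs (y axis, log scale that is linear below 1) against UMIs of all heavy chain constant genes (x axis, log scale) in each plasma cell of the aged (left) and aged-GA library (right), with the 4 young cells as triangles in both. The grey line marks 100 constant gene UMIs. Of the 21 aged cells at 0 Ighv UMIs, 20 lie at or left of the line, and the cell with most Ighv UMIs, 37, lies to the right of it.

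Ighv11-2 and Ighv12-3 are the segments of antibodies against phosphatidylcholine made by B-1 cells, self-renewing B cells with an innate-like repertoire that are common in the peritoneal cavity. Ighv11-2 held 12, 8 and 10 UMIs in 8, 4 and 7 B cells of young, aged and aged-GA mice, and Ighv12-3 held 3, 3 and 4 UMIs in 2, 3 and 4. Together they took 1.47% (0.83 to 2.42%), 0.97% (0.49 to 1.73%) and 0.96% (0.53 to 1.61%) of the Ighv UMIs, and the intervals overlap. These shares move with the counting, as they were 2.60% of the cells assigned in young mice and 0.525% of the UMIs in aged-GA mice without the 5% of B cells that held most UMIs. In plasma cells, Ighv12-3 was found with 2 UMIs in 1 aged cell and Ighv11-2 with 1 UMI in 1 aged-GA cell.

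B cells with a UMI of Bhlhe41, a transcription factor needed by B-1 cells, numbered 131, 384 and 501. In them both segments took 8.96% (3.36 to 18.5%), 4.20% (1.56 to 8.91%) and 8.18% (4.43 to 13.6%) of the Ighv UMIs, against 0.946% (0.43 to 1.79%), 0.506% (0.16 to 1.18%) and 0.0773% (0.0020 to 0.43%) in B cells without. The share was higher beside Bhlhe41 in all 3 libraries, on 6, 6 and 13 UMIs from 4, 3 and 10 cells, against 9, 5 and 1 UMIs from 6, 4 and 1 cells without. UMIs of the same cell are not independent, so these intervals are too narrow, and in the aged library 4 of the 6 UMIs came from 1 cell. The cells with Bhlhe41 were also deeper, with means of 5905, 6026 and 6693 UMIs per cell against 3928, 3988 and 4550.

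The cells with Ighv11-2 held more of some genes of the B-1 list and not of others. Of its 12 genes, 5, 4 and 8 had an interval above that of the B cells with UMIs of other Ighv segments in the young, aged and aged-GA library, 0 had one below and the rest overlapped. These intervals take UMIs of a cell as independent and are too narrow. No share over all genes is given beside these counts, so they are a description and do not set the list apart from other genes. The Ighv11-2 cells were deeper, with means of 7919, 6704 and 12735 UMIs per cell against 4362, 4395 and 5163, so shares of cells with a UMI are compared at unequal depth. Bhlhe41 was found in 3 of 8, 2 of 4 and 6 of 7 of them, against 41 of 744, 101 of 919 and 109 of 1178 B cells with UMIs of other Ighv segments. At 268, 186 and 112 CPM it lay above the 19.1, 44.6 and 30.6 CPM of the others, with intervals that do not overlap. Zbtb20, a transcription factor expressed in B-1 and antibody-secreting cells, stood at 316, 783 and 583 CPM against 140, 162 and 177 CPM, also without overlap. Cd9, a tetraspanin of B-1 and marginal zone B cells, stood at 174, 149 and 146 CPM against 31.4, 36.1 and 35.5 CPM, and its intervals overlapped in the aged library alone. Cd5, the classical surface marker of B-1a cells, had 0, 0 and 1 UMIs in the Ighv11-2 cells. Fcrl5, a receptor of innate-like B cells, had 2, 0 and 2. In the Ighv11-2 cells Itgam had 14 UMIs in the aged-GA library, all in 1 cell, and 0 in the others. Mzb1 stood at 631, 858 and 314 CPM against 306, 333 and 319 CPM, so the aged-GA cells did not stand above the others. Bhlhe40, a relative of Bhlhe41, stood at 15.8, 74.6 and 0 CPM against 20.95, 25.0 and 30.6 CPM, with intervals that overlap.

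The 2, 3 and 4 cells with Ighv12-3 gave less. Of the 12 genes, 0, 0 and 3 had an interval above that of the other cells, the 3 being Bhlhe41, Fcrl5 and Zbtb20 in the aged-GA library. Here too no share over all genes is given beside the counts. Bhlhe41 had 1, 1 and 6 UMIs, Cd9 had 0, 0 and 2, and Zbtb20 stood at 259, 70.2 and 761 CPM against the 140, 162 and 177 CPM of the others.

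Igkv14-126, the kappa segment known to pair with Ighv11-2, was found in 3 of 8, 1 of 4 and 0 of 7 cells with Ighv11-2, and in 5 of 744, 2 of 919 and 2 of 1178 cells with other segments. It was the light chain segment with most UMIs in the Ighv11-2 cells of all libraries, 8 against 3 of the next, Iglv1, and was named after that value was seen, so its counts are a description. A light chain V UMI of any kind was present in 6, 3 and 1 of the Ighv11-2 cells, so in aged-GA mice the pairing was hardly observable at this depth. All counts of these cells are small, and cells of a library come from mice that cannot be told apart.

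**Figure D5:**
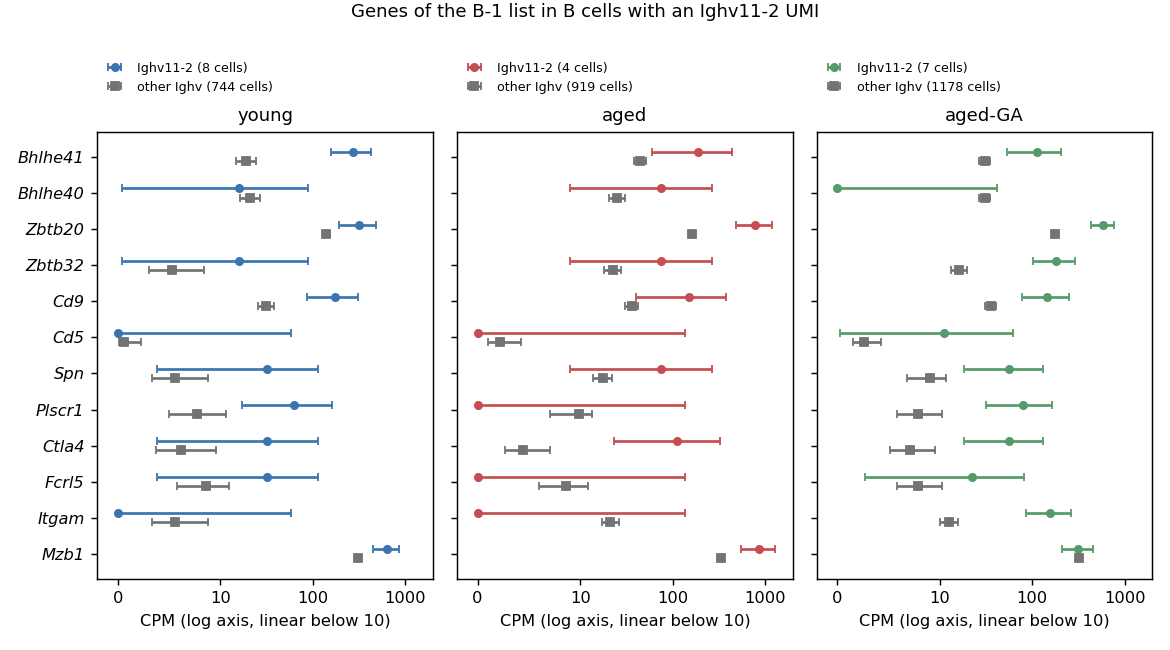
Level of the 12 genes of the B-1 list (x axis, CPM, log scale that is linear below 10) in B cells with an Ighv11-2 UMI (coloured circles) and in B cells with UMIs of other segments only (grey squares), in the 1 library of each group. Bars are exact 95% Poisson intervals of the summed counts, which take UMIs of a cell as independent. Bhlhe41 and Zbtb20 lie above the other B cells without overlap in all 3 libraries, while Cd5 rests on 0, 0 and 1 UMIs.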

How the data were processed

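The authors deposited 1 matrix of raw UMI counts per library, made with Cell Ranger against mm10 per the submitters' processing notes. The deposited matrix headers name Cell Ranger 5.0.0, while the methods name an earlier version. Barcodes were kept at 200 or more genes, at most 90% of the highest gene number of the library and at most 7.5% mitochondrial UMIs, after the study's methods. B and plasma cells were then taken by the marker rules given above, and T cells, the background, held at least 2 Cd3 UMIs and 0 of Cd79a and Cd79b. No doublet caller was run. Counts were summed over cells with Python 3 (numpy, scipy), the exact method gave 95% intervals, and ratio intervals were conditional on the sum of both counts. Calls took log2(CPM + 1), at least 50 UMIs over both libraries and a difference of 2-fold, and were checked on simulated data. How reliable they are at the few UMIs of single segments was not tested. The segments, the gene lists and the rules of both cell classes were chosen with earlier results of these data known. Segments named were the 10 with most B cell UMIs, both B-1 segments and the leading 3 of plasma cells. The 4 highest and 4 lowest of aged over young and of aged-GA over aged were also named. Ratios of single segments for aged-GA over young are not given. Sequences and positions are from GENCODE M21. Amino acid sequences and promoters were not used here.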

Additional observations from a re-analysis of the deposited data

Results flagged for a closer look

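Ighv UMIs were also found in barcodes that no comparison used, above the level in the T cells of the same library (0.179, 0.451 and 0.692 CPM). Those T cells were chosen to hold 0 Cd79 UMIs, so their level may understate the background. Barcodes removed by the cell filter held 10.3 CPM in young (8.49 to 12.5, 110 UMIs) and 4.84 CPM in aged-GA mice (3.97 to 5.84, 108 UMIs). Of these UMIs, 95 and 76 lay in the 314 and 343 removed barcodes that met the B cell rule. In the aged library the removed barcodes held 31 UMIs, or 1.09 CPM (0.74 to 1.54), which overlaps the T cell interval (0.15 to 1.05). Kept cells that were neither B, plasma nor T cells held 13.9 CPM in young (11.7 to 16.3), 4.01 CPM in aged (3.23 to 4.93) and 6.73 CPM in aged-GA mice (5.81 to 7.75). Of their 151, 91 and 193 UMIs, 144, 76 and 174 lay in the 350, 300 and 713 cells that held at least 3 Cd79 UMIs together with more than 1 Cd3 UMI. Outliers within a group could not be sought with 1 library per group.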

How the results depend on the processing

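Of 117 values under alternatives, 84 stayed within the interval or within 1.5 times of the value reported and 33 did not. None of the 33 turned the direction of a call, though the sign of aged-GA over aged changed with cells assigned. Among the 84 are counts of 0 segments called that stayed at 0, which tell little at a few CPM per segment. Some values of young plasma cells among them rest on the same 3 cells. No paired analysis was possible because each group had 1 library, and for the same reason no library could be left out. Of the alternatives, 3 kinds were chosen after the data were seen: plasma cells with at least 100 constant gene UMIs, other denominators of the CPM, and scaling to equal segment totals. With cells that met both rules counted in both classes, the log2 ratios of all Ighv UMIs were -0.45 for aged over young, -0.29 for aged-GA over aged and -0.74 for aged-GA over young, since plasma cells then add their UMIs. With cells assigned in place of UMIs, counted per B cell and not corrected for depth, these ratios were -1.25, 0.060 and -1.19. Of the cells assigned, Ighv1 took 45.5%, 40.9% and 46.7% in young, aged and aged-GA mice, and Ighv11-2 with Ighv12-3 took 2.60% in young mice. Per UMI of Ighm and Ighd the ratios to young were -1.03 for aged and -1.23 for aged-GA. The 2 segments called lower in aged than in young B cells became 4 at a minimum of 20 UMIs and 4 with no minimum, and 0 at a minimum of 100 UMIs (fewer segments compared), at a pseudocount of 10 CPM, as shares of Ighv UMIs and with equal totals of all segments, where 1 segment was called higher. Assigned cells numbered 715, 895 and 1143 at 1 UMI and 1, 3 and 0 at 5 UMIs. B cells with an Ighv UMI were 32.5%, 20.4% and 20.7% without thinning and 5.52%, 3.19% and 3.01% at 500 UMIs, and the young library was the highest each time. Counted by cells, the leading segment took 5.88% of aged plasma cells, a tie of 4 segments. Without the 5% of B cells with most UMIs, the B-1 segments took 0.525% in aged-GA mice, and the cause was not tested. Depth limits single segments, of which 28 reached 50 UMIs over all 3 libraries.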
